A study of Homo sapiens with 6 samples.

Results

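The 45 genes of TGF-β, BMP and activin signalling were examined in the human renal proximal tubular line HK-2 under high glucose. They were chosen by symbol, as ligands, receptors, SMADs, antagonists and ID targets of the pathway, and all 45 were found among the 31831 genes of the count table. RNA-seq covered 3 libraries with the empty control vector (HG-NC) and 3 in which hnRNP-F, an RNA-binding protein of the heterogeneous nuclear ribonucleoprotein family, was overexpressed (HG-OE). Both groups were HK-2 cells, an immortalised line, kept for 72 h in medium with 30 mM glucose. Both had also received a vector, which is described as a lentivirus in the methods. The labels name a control plasmid for HG-NC, and for HG-OE they name the overexpression but no vector. Whether the cells were 1 clone or a mixed population was not given in the sources used here. The methods describe parallel wells for each group and biological replicates, and the labels tie no library to a well, so the p-values measure only the spread between these libraries, which may be in part technical.

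TGF-β, BMP and activin ligands are secreted dimers that bind pairs of type II and type I serine/threonine kinase receptors. TGF-β and activin receptors phosphorylate SMAD2 and SMAD3, BMP receptors phosphorylate SMAD1, SMAD5 and SMAD9, and either kind joins SMAD4 to act on genes in the nucleus. Latent binding proteins and secreted antagonists limit the ligands outside the cell, while inhibitory SMADs and SMURF ubiquitin ligases limit the signal inside it. In the kidney tubule, TGF-β is best known for driving fibrosis and BMP7 for opposing it.

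Library totals ran from 25507595 to 29444841 counted read pairs. A count of 0 allowed at most 0.118 CPM (counts scaled to the library total) in the smallest library, a limit of 3 counts that covers counting error only. HNRNPF itself, the check of the labels, stood at 304.1, 318.6 and 311 CPM in HG-NC and at 430.5, 451.8 and 423.3 CPM in HG-OE, so that the log2 fold change was 0.48 ± 0.04 (SE, adjusted p = 2.8e-07, edgeR). An exact two-sided permutation test over the libraries gave p = 0.1, the smallest that 3 against 3 libraries allow. The HNRNPF rise was 1.40-fold, under the study's 2-fold threshold. It was not unusual in size, since 20.1% of all genes tested were called with a log2 fold change of at least 0.5 in either direction. Of 20 proximal tubule and renal epithelial markers, 11 averaged over 1 CPM across the 6 libraries, HNF4A among them only through HG-OE replicate 3. CUBN, AQP1 and SLC34A1 stayed under 1 CPM in every library. The renal transcription factor PAX8, the kidney cadherin CDH16 and the brush-border enzymes DPP4 and MME were present in every library, and the transporter SLC5A2 was detected at 2.87 to 4.54 CPM. LRP2, HNF4A and SLC5A1, which also mark differentiated proximal tubule, were at 0 counts in 5 of 6 libraries. The exception in each case was HG-OE replicate 3, with HNF4A at 11.03, LRP2 at 0.58 and SLC5A1 at 0.034 CPM. The SLC5A1 value lay under the 0.102 CPM that a count of 0 allowed in that library. This library stood apart from the other two of its group: 26423 genes had a count in it, against 24342 to 25012 in the other 5 libraries. The summed level of 12 hepatocyte markers was 724.3 CPM in it, against 461.7 and 463.6 CPM in the other HG-OE libraries and 266.4 to 277.2 CPM in HG-NC. SERPINA1 alone gave 258.3 to 274.9 CPM of these sums in HG-NC and 456.6 and 458.4 CPM in HG-OE replicates 1 and 2. In HG-OE replicate 3 SERPINA1 gave less, 394.7 CPM. ALB, the defining hepatocyte marker, stood at 148.8 CPM in that library and at no more than 2.79 CPM elsewhere. The summed level of 11 squamous markers was 86.79 CPM in it and at most 15.06 CPM elsewhere. Results that rest on this library are given with and without it.

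For 40 of the 45 members, a promoter window of 250 bases before and 50 bases from the gene's start was found in RefSeq (GRCh38.p14), the first window being used where a gene had several. SKI, BMP1, BMP2, BMP7 and NOG had none. The windows were searched on both strands for CAGAC, the short box read by SMAD3 and SMAD4, for GGCGCC, a GC-rich core read by the BMP SMADs, and for the palindrome GTCTAGAC, which shares the letters AGAC with that box but does not contain it. CAGAC occurred in 20 of the 40 windows (50%), beside 45% of 27305 gene windows. GGCGCC occurred in 14 of the 40 (35%), beside 19% of all windows, and the palindrome in 1 window, that of SMAD6, beside 0.201% of all. The 27305 windows include genes that were not tested here. Among tested genes, GGCGCC was more frequent than 19%, as given next. CAGAC was found in 12 of 14 windows of members lower in HG-OE, beside 43.3% of all tested lower genes with a window. It was found in 5 of 12 windows of higher members, beside 42.5%, and in 3 of 12 of those not called, beside 43.3%. GGCGCC was found in 6 of the 14 lower members, beside 30.3% of all lower genes, and in 3 of the 12 higher members, beside 32.1%. Of the 12 members not called, 4 held it, beside 29.1%. The differences between these sets of members were not tested. These matches are letters in a window and not measured binding. 4 windows are printed because they belong to the antagonists BAMBI and GREM1, which fell together, and to the paralogs ID1 and ID3, which moved apart. Capitals mark CAGAC or its reverse complement GTCTG, and GGCGCC. No base was shared by both motifs in any of the 4.
BAMBI, chr10:28677271-28677570, plus strand: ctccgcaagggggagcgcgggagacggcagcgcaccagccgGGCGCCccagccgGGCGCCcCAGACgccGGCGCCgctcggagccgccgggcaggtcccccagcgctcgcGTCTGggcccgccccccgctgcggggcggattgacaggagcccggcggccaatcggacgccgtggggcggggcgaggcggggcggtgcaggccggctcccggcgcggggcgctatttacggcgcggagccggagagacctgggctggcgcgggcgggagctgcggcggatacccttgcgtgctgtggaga
GREM1, chr15:32717754-32718053, plus strand: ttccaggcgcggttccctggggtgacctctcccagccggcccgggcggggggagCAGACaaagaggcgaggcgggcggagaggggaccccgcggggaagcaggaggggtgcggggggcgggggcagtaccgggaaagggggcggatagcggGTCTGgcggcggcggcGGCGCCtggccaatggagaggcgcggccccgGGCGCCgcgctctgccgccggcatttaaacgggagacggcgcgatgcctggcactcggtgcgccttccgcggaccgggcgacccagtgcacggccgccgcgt
ID1, chr20:31605039-31605338, plus strand: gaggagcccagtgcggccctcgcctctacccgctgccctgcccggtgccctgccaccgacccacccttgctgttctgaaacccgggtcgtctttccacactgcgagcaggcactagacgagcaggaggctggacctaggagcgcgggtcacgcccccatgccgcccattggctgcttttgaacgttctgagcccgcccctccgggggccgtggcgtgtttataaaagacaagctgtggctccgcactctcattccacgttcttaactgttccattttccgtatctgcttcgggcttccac
ID3, chr1:23559452-23559751, minus strand: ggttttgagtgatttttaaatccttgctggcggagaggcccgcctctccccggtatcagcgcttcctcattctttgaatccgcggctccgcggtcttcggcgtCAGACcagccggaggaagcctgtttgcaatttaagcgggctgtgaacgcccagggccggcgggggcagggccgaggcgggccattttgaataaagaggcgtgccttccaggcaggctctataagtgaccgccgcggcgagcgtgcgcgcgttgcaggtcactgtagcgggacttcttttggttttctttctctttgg
The window of BAMBI held 2 CAGAC boxes and 3 GGCGCC cores, and that of GREM1 held 2 of each. The window of ID3 held 1 CAGAC box, and that of ID1 held neither motif.

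Of the 45 members, 42 passed the filter on low counts, and BMP7, INHBB and FST did not. Between HG-OE and HG-NC, 28 of the 42 passed an adjusted p of 0.05, which is 66.7%, against 51.8% of all 17142 genes tested. Of these, 13 were higher in HG-OE (31% of those tested, against 25.9% of all genes) and 15 were lower (35.7%, against 25.9% of all genes). LTBP1, SMAD9 and BAMBI were the 3 members that also changed at least 2-fold, or 7.14%, against 5.82% of all genes. A log2 fold change of at least 0.5 in either direction was reached by 13 of those called (31%, against 20.1% of all genes). The groups did not overlap for 30 of the 42 (71.4%, against 59.0% of all genes). The median log2 fold change over the 42 members was 0.03, beside 0.01 over all genes tested, and members moved in both directions. Their median absolute log2 fold change was 0.37, beside 0.27 over all genes. In bulk RNA, fewer cells expressing a gene and less of its RNA per cell cannot be told apart.

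**Figure D1:**
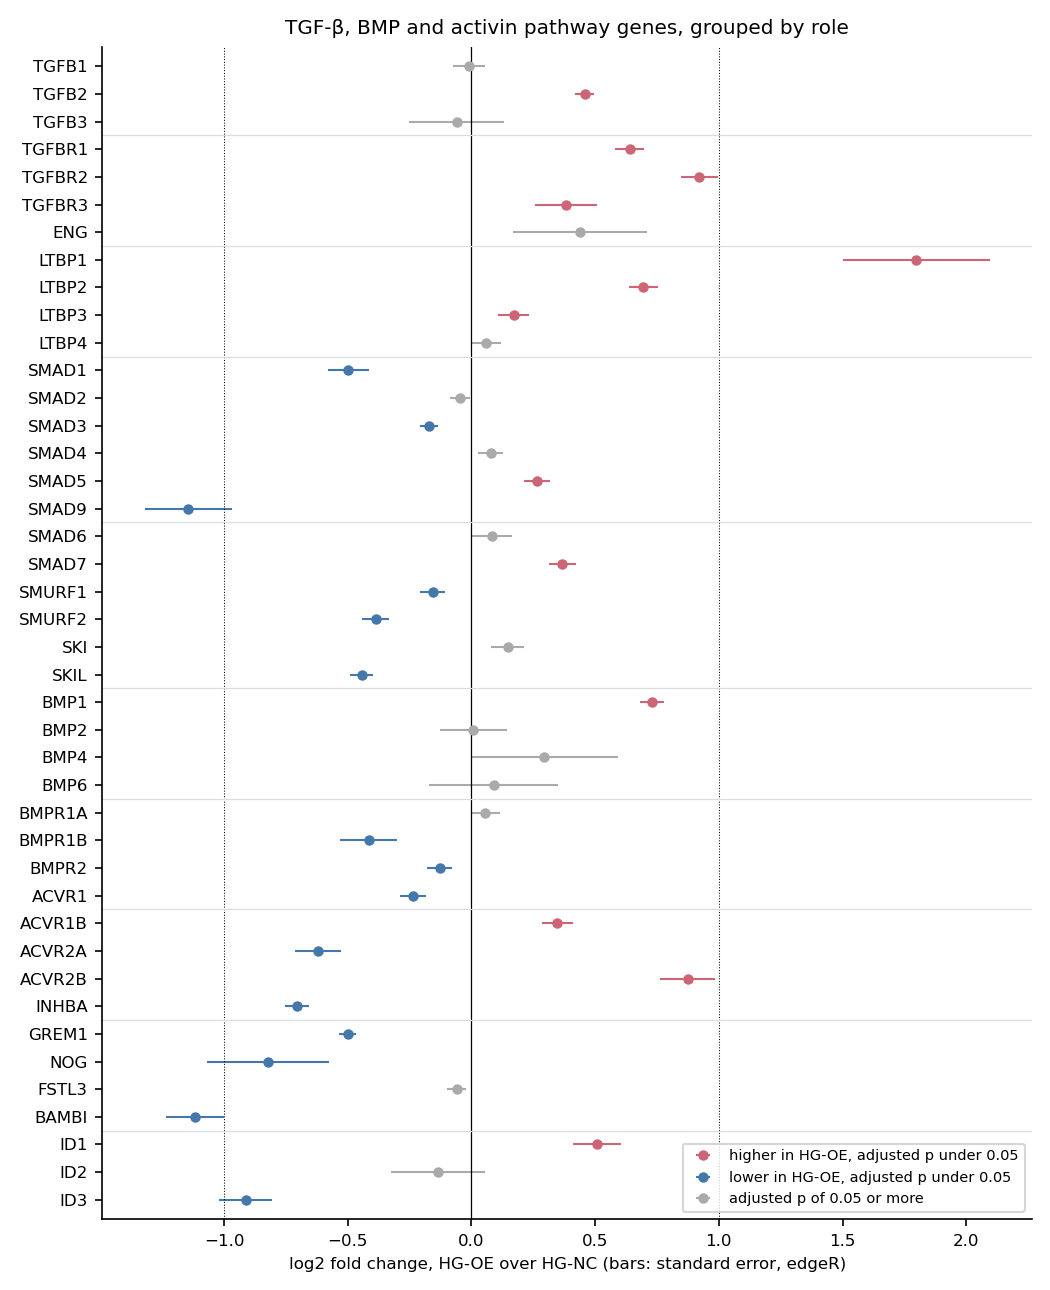
Log2 fold change of each of the 42 members tested, HG-OE over HG-NC, on the horizontal axis, with genes on the vertical axis in blocks by role. Points are edgeR estimates and bars standard errors, dotted lines mark 2-fold, and LTBP1 (1.80), SMAD9 (-1.15) and BAMBI (-1.12) lie beyond them.

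Of the 3 TGF-β ligands, TGFB2 rose while TGFB1 and TGFB3 did not pass the test. TGFB1, the isoform most studied in renal fibrosis, stood at 92.19, 99.9 and 104.1 CPM in HG-NC and at 101.9, 105.1 and 87.1 CPM in HG-OE. The groups overlapped, with the lowest level in HG-OE replicate 3, and the log2 fold change was -0.01 ± 0.07 (SE, adjusted p = 0.899). TGFB2 went from 188.8 ± 4.93 CPM to 259.4 ± 6.75 CPM (SD, n = 3 each), a log2 fold change of 0.46 ± 0.04 (adjusted p = 4.69e-07). TGFB3 was little expressed, at 2.64 ± 0.47 and 2.53 ± 0.32 CPM (SD), and its log2 fold change of -0.06 had an adjusted p of 0.814. Per kilobase, TGFB1 and TGFB2 were near the same level in HG-NC, at 27.07 ± 1.75 and 27.91 ± 0.72 FPKM (fragments scaled to gene length and library total, SD), which lie within their spread. In HG-OE the FPKM level of TGFB2 was 37.94 ± 1.21 and that of TGFB1 was 26.57 ± 2.58.

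Both signalling receptors for TGF-β rose in HG-OE. TGFBR1, the type I kinase, stood at 39.13, 41.12 and 38.75 CPM in HG-NC and at 66.41, 58.46 and 60.47 CPM in HG-OE. The 3 HG-OE libraries all lay above the HG-NC libraries, with a log2 fold change of 0.64 ± 0.06 (SE, adjusted p = 7.66e-07). TGFBR2, the type II kinase that binds the ligand first, stood at 25.88, 25.09 and 27.3 CPM in HG-NC and at 47.38, 45.17 and 55.65 CPM in HG-OE. These groups were also apart, and the log2 fold change was 0.92 ± 0.07 (adjusted p = 3.18e-07). TGFBR3 (betaglycan), a co-receptor that presents TGF-β2, went from 4.66 ± 0.27 to 6.07 ± 0.48 CPM (SD), a log2 fold change of 0.38 with an adjusted p of 0.0204, a call that was lost without HG-NC replicate 2 or HG-OE replicate 1. ENG, the endothelial co-receptor endoglin, was near 1 CPM in both groups and did not pass the test (0.89 ± 0.16 and 1.21 ± 0.20 CPM, log2 fold change 0.44, adjusted p = 0.191).

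The latent TGF-β binding proteins hold the inactive ligand in the extracellular matrix. LTBP1 (chr2:32946953-33399509, GENCODE 44 on GRCh38) had the largest fold change of the 42 members tested. It stood at 1.42, 1.63 and 0.72 CPM in HG-NC and at 3.79, 3.16 and 6.11 CPM in HG-OE. The groups did not overlap, HG-OE replicate 3 was the highest, and the log2 fold change was 1.80 ± 0.30 (SE, adjusted p = 1.76e-04). Without that library the log2 fold change was 1.48. LTBP2, which unlike its relatives does not bind latent TGF-β, stood at 53.92, 57.6 and 61.18 CPM in HG-NC and at 92.87, 99.98 and 86.93 CPM in HG-OE. All HG-OE libraries were higher, with a log2 fold change of 0.70 ± 0.06 (adjusted p = 4.82e-07). LTBP3 showed a log2 fold change of 0.17 ± 0.06 (65.32 ± 0.93 to 73.49 ± 7.20 CPM, SD, adjusted p = 0.0317), and leaving out any library but HG-OE replicate 3 ended this call. LTBP4, with 83.46 ± 3.46 and 87.03 ± 8.09 CPM, did not pass the test (adjusted p = 0.439), though it did without HG-OE replicate 3 (log2 fold change 0.14, adjusted p = 0.0126).

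Among the SMADs that carry the signal, SMAD3 fell slightly, SMAD2 and SMAD4 did not pass the test, and the BMP mediators moved in different directions. SMAD2 stood at 76.85, 74.89 and 76.13 CPM in HG-NC and at 74.5, 73.23 and 73.1 CPM in HG-OE. Every HG-OE library was below the HG-NC libraries, but the log2 fold change of -0.05 ± 0.04 did not pass the test (SE, adjusted p = 0.381). SMAD3 stood at 301.2, 301.3 and 303.8 CPM in HG-NC and at 274.4, 271 and 260.1 CPM in HG-OE, so it fell by 0.17 ± 0.04 on the log2 scale with no overlap (adjusted p = 0.00151). SMAD4, the common partner, stood at 47.16, 49.1 and 49.77 CPM in HG-NC and at 51.76, 49.63 and 52.72 CPM in HG-OE. The groups overlapped and the log2 fold change was 0.08 ± 0.05 (adjusted p = 0.209). Of the BMP mediators, SMAD1 fell from 28.16 ± 2.11 to 19.94 ± 2.09 CPM (SD, log2 fold change -0.50 ± 0.08 SE, adjusted p = 1.82e-04). SMAD5 rose from 37.18 ± 1.70 to 44.69 ± 0.91 CPM (log2 fold change 0.27 ± 0.05, adjusted p = 8.44e-04). SMAD9 (chr13:36844831-36920887), the least abundant of them, stood at 3.78, 3.62 and 3.4 CPM in HG-NC and at 1.58, 1.48 and 1.81 CPM in HG-OE. Its groups were well apart, and it was 2.21-fold lower in HG-OE (log2 fold change -1.15 ± 0.18, adjusted p = 9.97e-05).

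Of the 6 genes that restrain the signal inside the cell, 1 rose, 3 fell and 2 did not pass the test. SMAD7, the inhibitory SMAD that TGF-β itself induces, rose from 34.27 ± 1.98 to 44.22 ± 0.31 CPM (SD), a log2 fold change of 0.37 ± 0.05 (SE, adjusted p = 7.91e-05). SMAD6, which acts mainly on BMP signals, was at 14.32 ± 0.43 and 15.15 ± 1.17 CPM (adjusted p = 0.439). The ubiquitin ligase SMURF2 fell by 0.39 ± 0.05 on the log2 scale (adjusted p = 4.3e-05) and its relative SMURF1 by 0.16 ± 0.05 (adjusted p = 0.0198). The SMURF1 call was lost without HG-NC replicate 2 or 3 or HG-OE replicate 1. SKIL (SnoN), a repressor of SMAD complexes, fell from 108.2 ± 0.89 to 79.57 ± 4.37 CPM (log2 fold change -0.44 ± 0.05, adjusted p = 2.69e-06). Its relative SKI was at 24.66 ± 1.61 and 27.3 ± 1.15 CPM and did not pass the test (adjusted p = 0.0782).

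BMP1 rose, and no BMP ligand passed the test. BMP1 is not a BMP but a secreted protease that matures procollagens and also cuts the latent TGF-β binding protein. It stood at 132.4, 129.8 and 134.2 CPM in HG-NC and at 225.9, 229.1 and 202 CPM in HG-OE. The groups were far apart, and the log2 fold change was 0.73 ± 0.05 (SE, adjusted p = 5.85e-08). BMP6 was at 1.27 ± 0.38 and 1.35 ± 0.07 CPM (SD, adjusted p = 0.794). BMP7, the ligand linked to protection of the tubule, was barely detected, with 0, 2 and 0 counts in HG-NC and 1, 0 and 3 counts in HG-OE. At these depths its level could not be compared. BMP2 and BMP4 are described further on with the other members for which HG-OE replicate 3 stood apart.

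Of the 4 BMP receptors, 3 were lower in HG-OE. BMPR2, the type II receptor, stood at 53.72, 49.28 and 52.24 CPM in HG-NC and at 48.59, 46.13 and 47.22 CPM in HG-OE. The groups did not overlap, but their nearest libraries were close, and the log2 fold change was -0.13 ± 0.05 (SE, adjusted p = 0.0491). This call was lost when any of 4 libraries was left out in turn, HG-NC replicate 1 or 3 or HG-OE replicate 2 or 3. ACVR1 (ALK2), a type I receptor, fell by 0.24 ± 0.05 (adjusted p = 0.00185) and BMPR1B by 0.42 ± 0.12 (adjusted p = 0.0085) on the log2 scale, the latter not passing without HG-NC replicate 2. BMPR1A, the more abundant type I receptor of the BMPR1 pair, was at 33.68 ± 1.37 and 35.03 ± 1.68 CPM (SD, adjusted p = 0.44).

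The 2 activin type II receptors moved in opposite directions. ACVR2A stood at 13.49, 11.82 and 12.67 CPM in HG-NC and at 8.3, 8.11 and 8.3 CPM in HG-OE, all of them lower (log2 fold change -0.62 ± 0.09 SE, adjusted p = 8.07e-05). ACVR2B stood at 5.86, 5.28 and 4.83 CPM in HG-NC and at 9.68, 9.55 and 10.04 CPM in HG-OE, all of them higher (log2 fold change 0.87 ± 0.11, adjusted p = 1.79e-05). Per kilobase ACVR2A remained above ACVR2B in both groups, at 1.76 ± 0.12 against 0.30 ± 0.03 FPKM in HG-NC and 1.13 ± 0.02 against 0.55 ± 0.02 FPKM in HG-OE (SD). ACVR1B (ALK4), the type I receptor for activin, rose from 42.65 ± 2.32 to 54.31 ± 3.68 CPM (log2 fold change 0.35 ± 0.06, adjusted p = 2.97e-04). INHBA, which encodes the βA subunit of activin A, stood at 218.7, 208.3 and 200.4 CPM in HG-NC and at 136.7, 124.4 and 123.5 CPM in HG-OE. The groups were far apart and the log2 fold change was -0.71 ± 0.05 (adjusted p = 7.25e-08).

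Of the 4 antagonists tested, 3 fell and FSTL3 did not pass the test. BAMBI (chr10:28677510-28682932), a pseudoreceptor that lacks the kinase domain and blocks type I receptors, stood at 24.31, 30.41 and 30.02 CPM in HG-NC and at 11.61, 11.64 and 15.81 CPM in HG-OE. The groups did not overlap, and BAMBI was 2.17-fold lower in HG-OE (log2 fold change -1.12 ± 0.12 SE, adjusted p = 3.44e-06). Without HG-OE replicate 3, the highest library of its group for BAMBI, the log2 fold change was -1.28. NOG (noggin) stood at 2.01, 1.33 and 1.9 CPM in HG-NC and at 0.90, 1.06 and 0.99 CPM in HG-OE, lower in each library at this low level (log2 fold change -0.82 ± 0.25, adjusted p = 0.0125). Without HG-NC replicate 1 this call was lost. GREM1 (gremlin), the BMP antagonist that rises in diabetic kidney disease, was the most abundant member by CPM and fell from 465 ± 7.73 to 328.9 ± 3.42 CPM (SD, log2 fold change -0.50 ± 0.03, adjusted p = 8.31e-08). FSTL3, a follistatin-like activin trap, was at 197.6 ± 5.25 and 189.7 ± 3.23 CPM and did not pass the test (log2 fold change -0.06, adjusted p = 0.219), although its groups did not overlap.

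**Figure D2:**
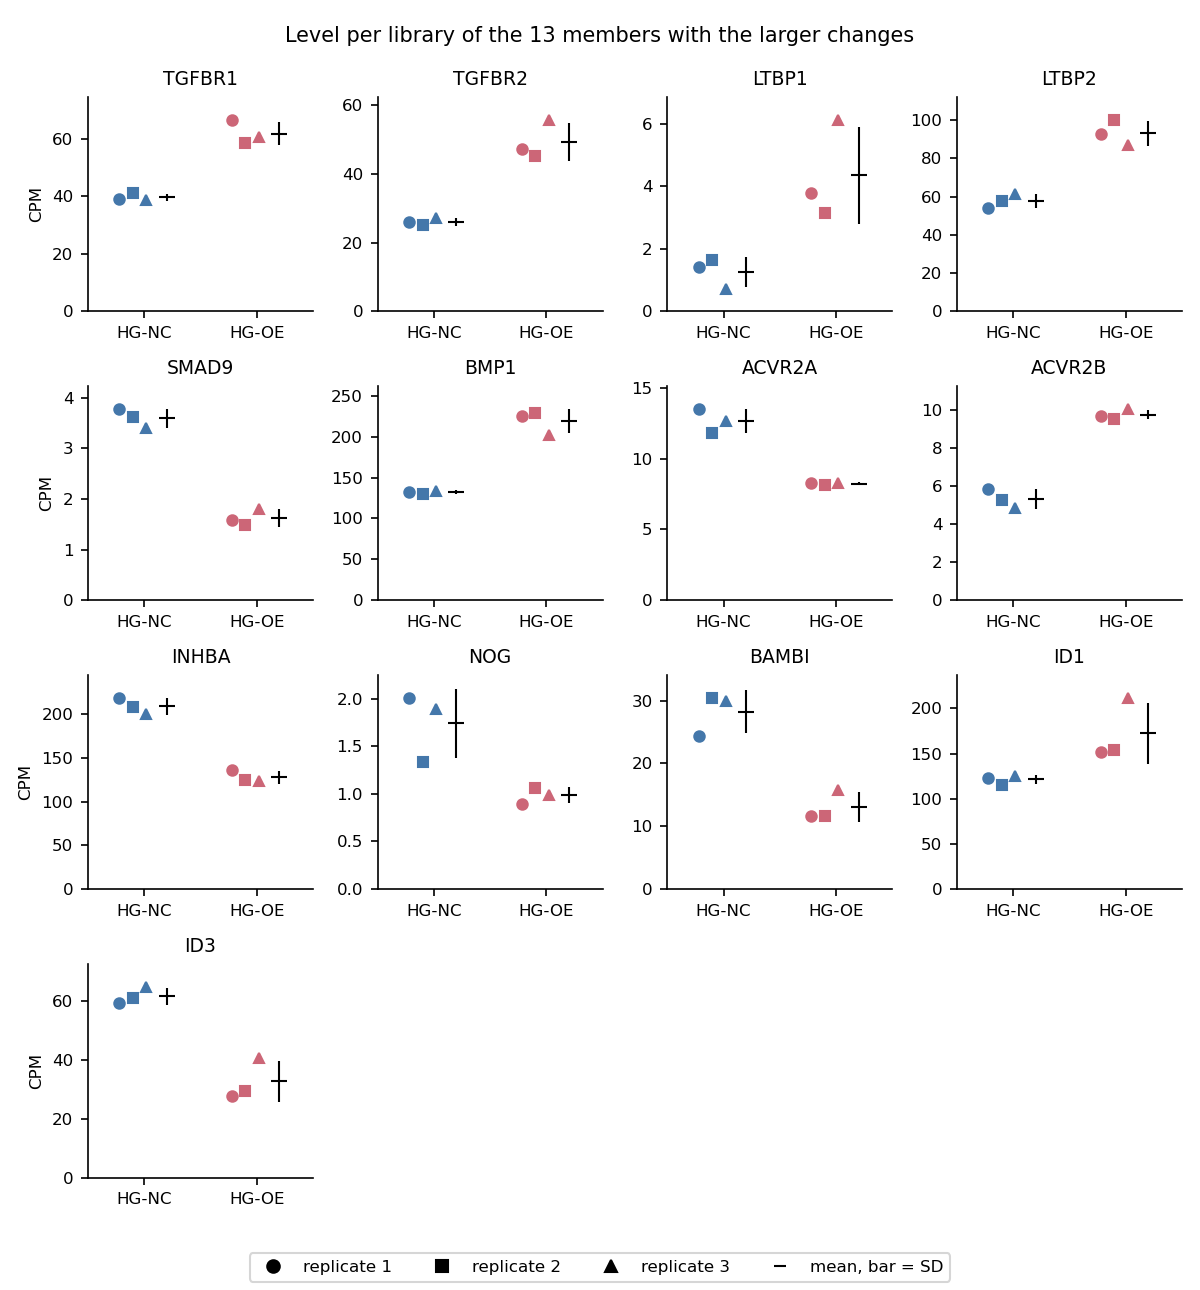
CPM in each library for the 13 members with an adjusted p under 0.05 and a log2 fold change of at least 0.5 in either direction, each panel with its own axis from 0. Points are libraries, horizontal bars means and vertical bars SD (n = 3), and in all 13 panels the HG-NC and HG-OE libraries do not overlap, with TGFBR2 at 25.09 to 27.3 CPM against 45.17 to 55.65 CPM.

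ID1, ID2 and ID3 encode dominant-negative helix-loop-helix proteins and are immediate targets of BMP SMADs. ID1 stood at 122.7, 115.6 and 125.4 CPM in HG-NC and at 152, 154.3 and 211.4 CPM in HG-OE. It rose with no overlap, by a log2 fold change of 0.51 ± 0.10 (SE, adjusted p = 5.79e-04), which was 0.34 without HG-OE replicate 3 (adjusted p = 1.8e-09). The ID1 call was lost in limma on log2(FPKM + 1) without a filter on low values (adjusted p = 0.0529). ID3 stood at 59.31, 61.18 and 64.9 CPM in HG-NC and at 27.98, 29.61 and 40.87 CPM in HG-OE. It fell by 0.91 ± 0.11 on the log2 scale (adjusted p = 7.86e-06), and its log2 fold change was -1.102 when HG-OE replicate 3 was left out, past 2-fold. ID2 stood at 14.63, 15.63 and 16.03 CPM in HG-NC and at 10.68, 10.92 and 20.52 CPM in HG-OE, so HG-OE libraries lay on both sides of HG-NC. With all libraries ID2 did not pass the test (log2 fold change -0.14 ± 0.19, adjusted p = 0.577), and leaving out HG-OE replicate 3 gave -0.51 (adjusted p = 6.45e-06). That fit drops the only HG-OE library above HG-NC, so its p-value leaves out the spread seen within HG-OE. In HG-OE replicates 1 and 2 alone, ID1 was thus above and ID2 and ID3 below the HG-NC libraries.

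INHBB, FST, BMP4 and BMP2 were also higher in HG-OE replicate 3 than in the rest of its group, and were singled out after their values were seen. INHBB, the βB subunit of activin B, had 0, 1 and 0 counts in HG-NC and 1, 0 and 141 counts in HG-OE. FST (follistatin), the main activin antagonist, had 3, 0 and 0 counts in HG-NC and 5, 3 and 112 counts in HG-OE. This library thus held 99.3% of the INHBB counts and 93.3% of the FST counts of HG-OE, beside 33.6% of all counts of that group. BMP4 stood at 6.02, 5.95 and 6.22 CPM in HG-NC and at 4.65, 4.81 and 12.84 CPM in HG-OE. Its log2 fold change was 0.29 ± 0.30 (SE, adjusted p = 0.432) with all libraries and -0.36 (adjusted p = 0.0225) without HG-OE replicate 3. BMP2 stood at 28.47, 31.14 and 28.59 CPM in HG-NC and at 26.53, 23.39 and 38.72 CPM in HG-OE. Its log2 fold change was 0.01 ± 0.14 (adjusted p = 0.969) with all libraries and -0.24 (adjusted p = 0.00437) without that library. For BMP4 and BMP2, too, the fit without it drops the only HG-OE library above HG-NC, and with it the spread within HG-OE. The hepatocyte and squamous marker sums given above moved with these values in the same library, and their part in the result was not tested. Without HG-OE replicate 3, 31 members passed the test, 14 higher and 17 lower, against 53.9% of all genes called in that fit.

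**Figure D3:**
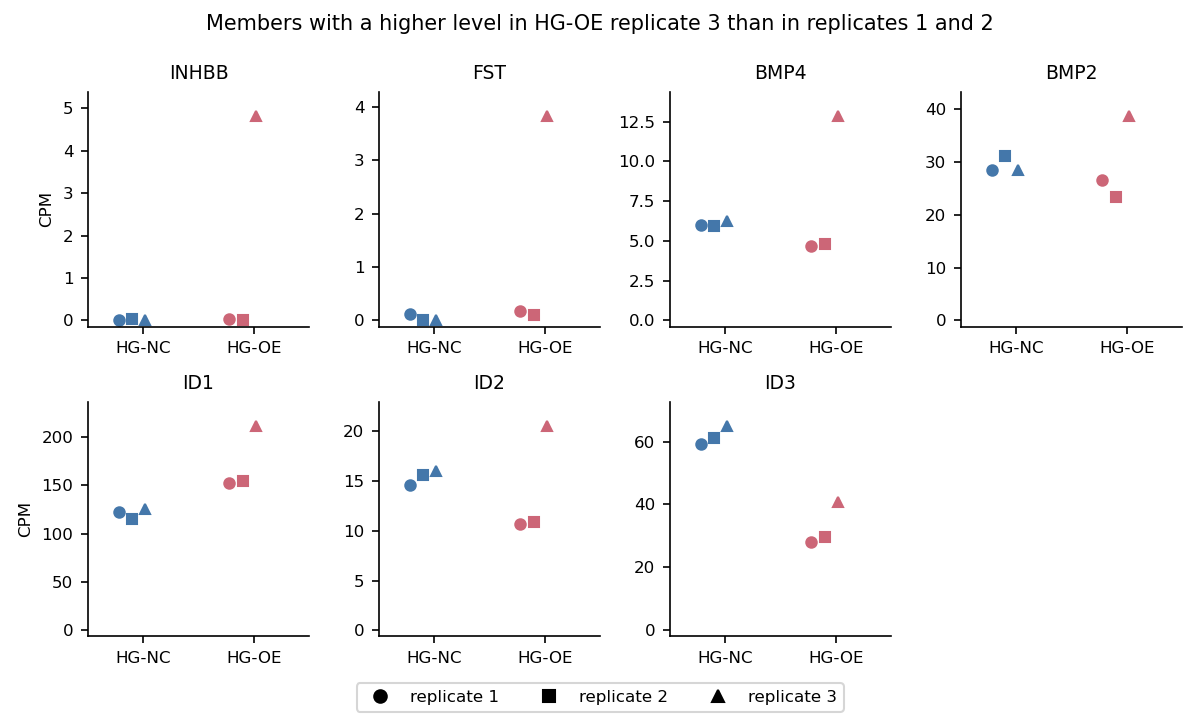
CPM in each library for 7 members, each panel with its own axis, circles, squares and triangles standing for replicates 1, 2 and 3. The triangle of HG-OE lies above its group in every panel, most widely for INHBB (141 of 142 counts of HG-OE) and FST (112 of 120 counts).

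Several members lay in stretches of chromosome where neighbouring genes moved the same way. For each member, the log2 fold changes of all other tested genes within 10 Mb were summarised by their median. It was below -0.2 for 8 of the 15 lower members, 2 of the 14 members not called and 1 of the 13 higher members, beside 14% of all tested genes with a position. It was above 0.2 for 3 higher members (TGFBR2, ACVR2B and SMAD5) and for no lower member, beside 12.4% of all genes. Both background shares cover genes of every direction. The shares among all genes called lower or called higher were not computed, so these counts do not set the members apart from other called genes. On chromosome 2 the 34 neighbours of ACVR2A had a median of -0.56, near the member's own -0.62. The median was -0.37 around ACVR1 and -0.39 around BMPR2, both lower than the members themselves. On chromosome 3 the median was 0.41 around TGFBR2 and 0.49 around ACVR2B, and with it removed the log2 fold changes were 0.51 (adjusted p = 9.18e-05) and 0.39 (adjusted p = 0.0102). Relative to the median of their neighbours, ACVR1 and BMPR2 were higher in HG-OE, with log2 values of 0.14 (adjusted p = 0.0473) and 0.26 (adjusted p = 0.00102). ACVR2A did not pass the test (-0.06, adjusted p = 0.637). SMAD1, SMURF2, SKIL, BMPR1B and NOG also lost their call, with neighbours' medians from -0.34 to -0.24. Of the higher members, LTBP3 and SMAD5 lost theirs, with neighbours' medians of 0.199 and 0.286. SKI, LTBP4 and BMPR1A passed the test as higher and SMAD2 as lower once the neighbours' median was removed. LTBP1 rose against neighbours whose median was -0.32. The medians around SMAD9 (-0.02), INHBA (0.05), GREM1 (-0.01), TGFBR1 (-0.003) and BMP1 (0.04) were close to 0. The p-values with the median removed take that median as a fixed value. They hold only the spread of the member's own libraries, not the spread of the neighbouring genes around their median. The part of the neighbourhood in the members' changes was not tested beyond this removal of the median.

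**Figure D4:**
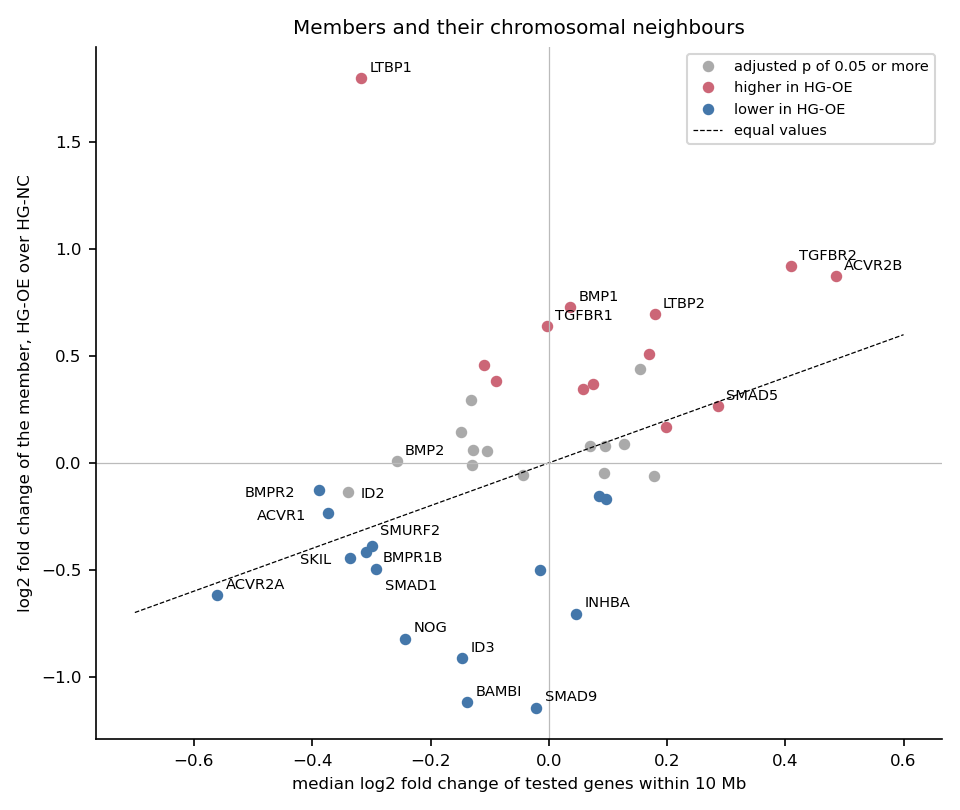
Log2 fold change of each of the 42 members (vertical axis) against the median over its tested neighbours within 10 Mb (horizontal axis), HG-OE over HG-NC. The dashed line marks equal values, with ACVR2A (-0.56, -0.62) and SMAD5 (0.29, 0.27) close to it and LTBP1, SMAD9, BAMBI and INHBA far from it.

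On the FPKM scale, ID1 had the highest level of the members in HG-NC at 87.99 ± 3.90 FPKM (SD, n = 3), followed by FSTL3 at 58.28 ± 1.42 and ID3 at 36.96 ± 1.84 FPKM. GREM1, TGFB2, SMAD3 and TGFB1 came next, at 28.14 ± 0.37, 27.91 ± 0.72, 27.08 ± 0.23 and 27.07 ± 1.75 FPKM. The mean ± SD intervals of neighbours in this stretch of the order overlapped. INHBA at 22.58 ± 0.92 FPKM and BMP1 at 16.73 ± 0.33 FPKM closed the upper part. In HG-OE, BMP1 at 27.42 ± 1.85 FPKM stood above INHBA at 13.7 ± 0.86, GREM1 at 19.68 ± 0.30 and ID3 at 19.41 ± 4.14 FPKM. TGFBR2 went from 3.41 ± 0.16 to 6.38 ± 0.72 FPKM and TGFBR1 from 5.20 ± 0.16 to 8.02 ± 0.59 FPKM, so TGFBR1 kept the higher mean in both groups.

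**Figure D5:**
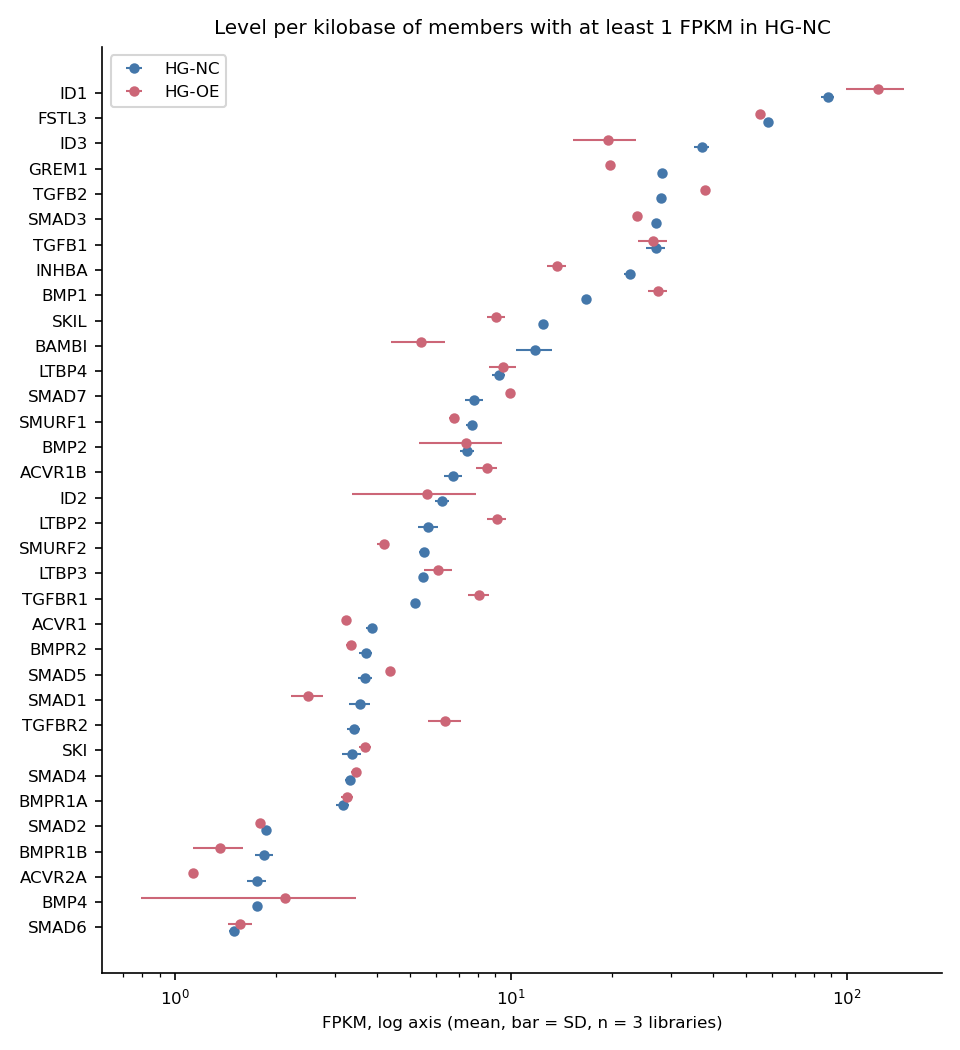
FPKM level on a log axis for members with at least 1 FPKM in HG-NC, ordered by their HG-NC mean. Points are means and bars SD (n = 3 libraries), from ID1 at 87.99 FPKM down to SMAD6 at 1.497 FPKM in HG-NC, with BMP1 above and INHBA below its HG-NC level in HG-OE.

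Other genes of the pathway were taken from lists of ligands, receptors, antagonists and intracellular regulators, written with earlier results of these data known. They numbered 81, of which 57 could be tested. Of these, 18 were higher and 16 lower in HG-OE, or 59.6% called, beside the 51.8% of all genes. Of 13 other ligands tested, 6 rose and 2 fell, including GDF6 from 2.60 ± 0.34 to 8.56 ± 0.58 CPM (SD, log2 fold change 1.72, adjusted p = 2.42e-07) and GDF11 (0.38, adjusted p = 3.89e-05). GDF15, a stress-induced and distant family member, fell from 595.5 ± 31.6 to 258.4 ± 26.5 CPM (log2 fold change -1.21, adjusted p = 7.1e-09). INHBE, the activin βE subunit, fell from 145 ± 3.24 to 75.51 ± 0.18 CPM (-0.94, adjusted p = 8.24e-10), in the same direction as INHBA. Among other receptors and co-receptors, 1 of 7 rose (CD109) and 1 fell (NRP1, log2 fold change -0.70, adjusted p = 1.54e-08). Of 16 antagonists and latency factors tested, 8 rose and 4 fell. The fibrillins that anchor latent TGF-β were among those that rose, FBN1 from 43.57 ± 2.09 to 78.14 ± 0.43 CPM (0.84, adjusted p = 1.4e-08) and FBN2 by a log2 fold change of 0.79 (adjusted p = 5.25e-05). VASN (0.52, adjusted p = 1.41e-04) and TWSG1 (0.46, adjusted p = 2.32e-06), from the same list, rose as well. The integrin subunit ITGB8, which helps release active TGF-β, fell by 0.67 on the log2 scale (adjusted p = 3.24e-06). Of 21 intracellular regulators tested, 9 were lower and 3 higher (57.1% called). PMEPA1, a TGF-β-induced inhibitor of SMAD signalling, rose from 127.3 ± 2.84 to 190 ± 10.5 CPM (0.58, adjusted p = 2.38e-07), and PPM1A, a SMAD phosphatase, fell (-0.50, adjusted p = 2.47e-06).

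Target genes of TGF-β moved in both directions. Of 40 listed, 35 were tested, and 15 rose and 13 fell (80% called, against 51.8% of all genes, with a median log2 fold change of 0.08), 2 of each direction by at least 2-fold. TAGLN (SM22α), an actin-binding protein of contractile cells, stood at 20.49, 21.61 and 23.4 CPM in HG-NC and at 255.9, 249.3 and 231.2 CPM in HG-OE (log2 fold change 3.49, adjusted p = 1.83e-13). ADAM19 rose by 1.201 on the log2 scale (adjusted p = 1.45e-07), beside a median of 0.40 among its neighbours on chromosome 5. IGFBP5 went the other way, from 69.56 ± 4.05 to 23.34 ± 0.65 CPM (SD, log2 fold change -1.58, adjusted p = 3.07e-10). The collagen-modifying enzyme PLOD2 (-1.01, adjusted p = 5.1e-10) and the repressor ZEB2 (-0.97, adjusted p = 2.95e-08, neighbours' median -0.34) also fell. Of 15 BMP targets listed, 11 were tested, and 2 rose and 3 fell (45.5% called, against 51.8% of all genes). GATA2 fell from 19.85 ± 1.92 to 8.98 ± 1.46 CPM (-1.14, adjusted p = 1.91e-06) and HEY1 rose from 5.44 ± 0.81 to 9.88 ± 1.03 CPM (0.86, adjusted p = 8.16e-05). The target lists were written from general knowledge, with earlier results of these data known. Their shares called are therefore not an independent test. The lists mark genes that many signals reach, so their counts describe RNA levels and not activity of the pathway.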

How the data were processed

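Poly(A) RNA of 6 HK-2 libraries was sequenced by a strand-specific protocol. The authors aligned the reads to GRCh38 with HISAT2, and deposited raw counts, in which each gene has a whole number of unnormalised read pairs. The authors also deposited FPKM values, used here for levels between genes. The study's methods name ComBat_seq for batch correction, and whether it entered these counts is not given in the sources used here. Groups were taken from the labels. Counts were normalised by TMM and tested with edgeR 4.0.16 (quasi-likelihood, R 4.3.3) in the 17142 genes that passed its default filter, with Benjamini-Hochberg adjustment over all of them. Standard errors, adjusted p values and log2 fold changes come from this fit, and CPM from TMM-scaled library sizes. The study's 2-fold threshold was counted as well. Values per library are printed for called members with a log2 fold change of at least 0.5 and for 7 core members. They are also printed for members that HG-OE replicate 3 set apart. Genes named from other lists came from up to 5 called genes per list with the largest change, a mean of at least 100 counts and no overlap. Not all of these are named, and most are given as means or fold changes. Positions are from GENCODE 44. Alternatives were DESeq2 1.42.0, limma 3.58.1 on log2(FPKM + 1), other filters, a replicate block, leaving out each library, and, added after seeing the data, removal of the neighbours' median. The scripts were tested on simulated data. The members and lists were chosen with earlier results of these data known.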

Additional observations from a re-analysis of the deposited data

How the results depend on the processing

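The count of 28 members called ranged from 24 to 31 when libraries were left out one at a time, with 11 to 14 higher and 13 to 17 lower, and 3 to 4 passed 2-fold. In those fits 44% to 53.9% of all genes were called. DESeq2's Wald test called 25 members (40.1% of all genes), and a test against a fold of 1.2 (glmTreat) called 19 (24.3% of all genes). With the neighbours' median removed, 24 members were called (45.6% of all genes), 16 higher instead of 13 and 8 lower instead of 15. The 2-fold count was 5 without the low-count filter, which brought in INHBB and FST, and 1 (BAMBI) with limma on log2(FPKM + 1), filtered or not, where the pseudocount reduces the fold of low genes. Removing the neighbours' median turned BMPR2 (0.26) and ACVR1 (0.14) from lower to higher. LTBP3 (-0.029, adjusted p = 0.735) and SMAD5 (-0.021, adjusted p = 0.778) lost their calls as higher and passed in neither direction. Leaving out HG-OE replicate 3 turned BMP2 and BMP4, whose values ran from -0.24 to 0.15 and from -0.36 to 0.54 over the libraries left out. BMPR2, LTBP3 and TGFBR3 lost their calls in each limma setting, with BMPR1B and ID1 as well when no filter was used, and BMPR2, NOG and TGFBR3 lost theirs in DESeq2. TGFBR3 also lost its call without the low-count filter, and BMPR2 with at least 10 counts required in every library.

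The replicate numbers did not pair the libraries, with correlations of same-numbered deviations from -0.03 to 0.03. A fit with the replicate block called 28 members, 13 higher and 15 lower, changed no member's call, and called 8849 genes in all, beside 8887. HNRNPF passed the test in it too (log2 fold change 0.48, adjusted p = 4.74e-07).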
